A study of Mus musculus with 16 samples.

Results

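The genes described here are the osteoclast genes Tnfrsf11a, Nfatc1, Oscar, Dcstamp, Ocstamp, Atp6v0d2, Acp5, Ctsk and Mmp9, measured by bulk RNA-seq in mouse knee joint cells. The members were chosen by symbol. Of the 9 symbols, 8 had a row among the 13733 genes of the expression table, and all 8 passed the filter on low values, so that they were among the 13173 genes tested. Oscar had no row and is only named.

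Osteoclasts are the large multinucleated cells that resorb bone and calcified cartilage, and they arise by fusion of precursors of the monocyte and macrophage lineage. The cytokine RANKL (Tnfsf11) binds its receptor RANK (Tnfrsf11a) on these precursors, while M-CSF (Csf1) acting through Csf1r keeps them alive. RANK signalling, together with co-stimulatory receptors that signal through the adaptors DAP12 (Tyrobp) and FcRγ (Fcer1g), turns on the transcription factor Nfatc1. Nfatc1 in turn drives genes for fusion, for acid secretion and for digestion of the bone matrix. Trem2 is one of the receptors that pair with DAP12.

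The data were 16 libraries in 4 groups of 4, made from WT and Trem2-/- mice that were uninjured (D0) or injured (D7). WT mice were C57BL/6. Trem2-/- mice carried an inactivated Trem2 gene in all cells, on the same background. D0 joints were uninjured and D7 joints were collected 7 days after rupture of the anterior cruciate ligament by a single tibial compression. Mice were injured at 10 weeks of age according to the series' design, whereas the sample labels give an age of 16 weeks. The study's methods describe cells released from the joints by collagenase digestion, and a protocol in the labels speaks of homogenized joints and of mice with diabetes. Genotype and injury state, which the groups rest on, are given by the labels of every sample. The methods for the bulk libraries refer to the isolation used for single cells, which includes a magnetic separation by CD45, and do not say whether that step was applied or which fraction was used. In bulk libraries fewer cells of a type and less RNA per cell cannot be told apart.

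Between 11567073 and 32867818 reads fell on listed genes in each library, and 3 reads corresponded to between 0.101 and 0.250 CPM (reads of a gene scaled to a common library size, TMM-normalized). Trem2, the targeted gene, was at 4.56 ± 1.40 CPM (SD, n = 4) in WT D0, 16.8 ± 5.08 in WT D7, 1.80 ± 0.713 in Trem2-/- D0 and 4.27 ± 0.644 in Trem2-/- D7. Its log2 fold change between Trem2-/- and WT was −1.72 at D7 and −0.98 at D0, so the RNA was lower but not lost. WT D0 mice 1 and 4 had higher summed fibroblast markers (20453 and 50072 CPM) than mice 2 and 3 (6249 and 11535 CPM), with no gap past Dixon's limit for 1 mouse against the other 3. Values without both mice, an alternative chosen after seeing the data, are given beside the values of the members and of named genes whose printed call they change. Without them 5 members were again called with injury in WT and 2 between genotypes at D0, and Trem2 differed by −1.15 at D0.

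Measured per kilobase of exon, which allows genes to be compared with each other, the members covered a wide range of levels. Mmp9, a secreted gelatinase made by osteoclasts and in large amounts by neutrophils, stood first at D0, with 202 ± 76.9 CPM per kb in WT and 267 ± 118 in Trem2-/- (SD, n = 4). Ctsk, the collagen-degrading cysteine protease of osteoclasts that some fibroblasts also make, stood first at D7, with 186 ± 39.9 CPM per kb in WT and 269 ± 41.9 in Trem2-/-. Nfatc1 and then Acp5 (tartrate-resistant acid phosphatase) followed in every group. Tnfrsf11a and Atp6v0d2 (the d2 subunit of the V-type proton pump) had means between 1.30 and 2.22 CPM per kb except for Atp6v0d2 in Trem2-/- D0, at 0.507 ± 0.0847. The fusion proteins Dcstamp and Ocstamp closed the order, between 0.167 and 0.456 CPM per kb. Neighbours in the order whose mice overlapped were Mmp9, Ctsk and Nfatc1 in WT at both days, Nfatc1 and Acp5 in WT D0, Ctsk and Nfatc1 in Trem2-/- D0, Mmp9 and Nfatc1 in Trem2-/- D7, Tnfrsf11a and Atp6v0d2 except in Trem2-/- D0, and Dcstamp and Ocstamp in every group.

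**Figure D1:**
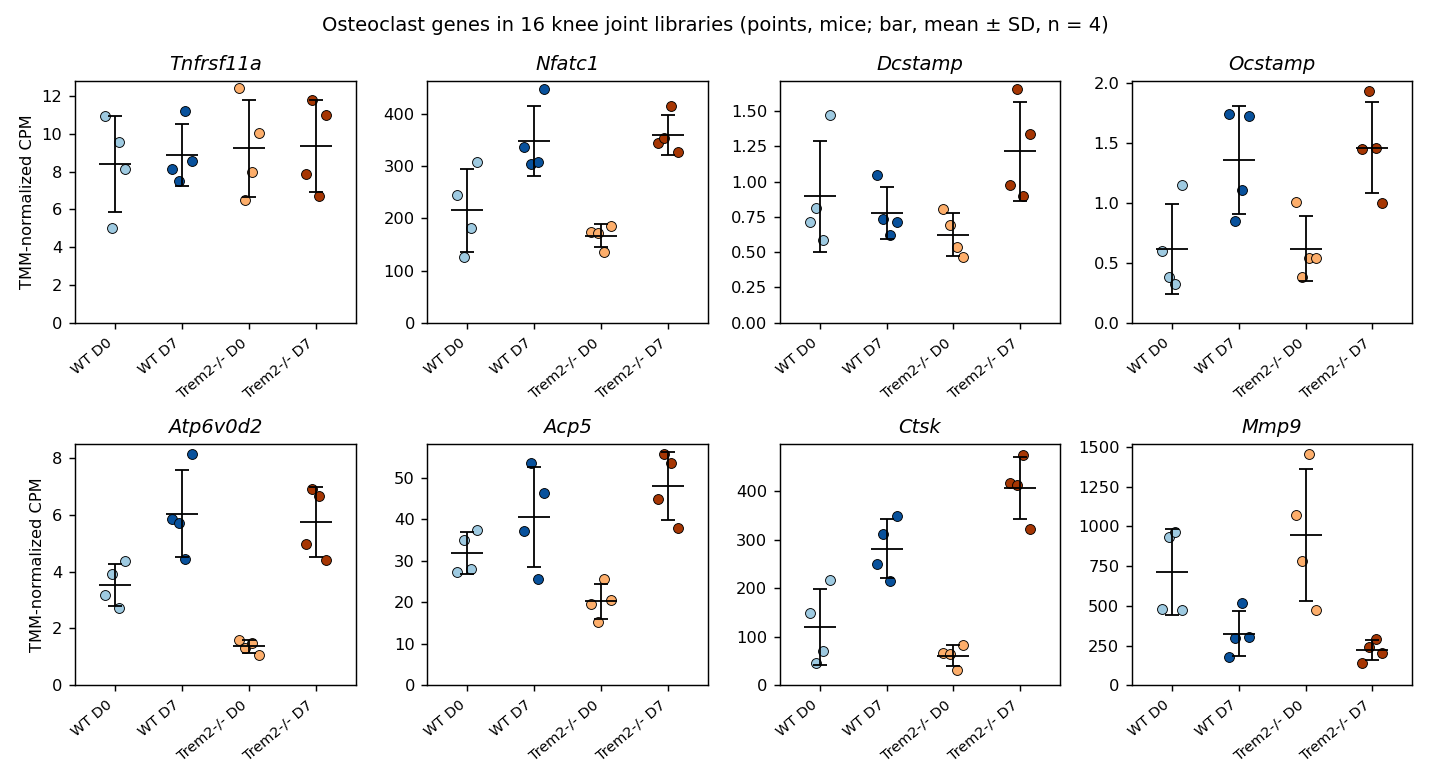
Levels of the 8 measured osteoclast genes in 16 libraries (y axis, TMM-normalized CPM from 0; x axis, group). Each point is 1 mouse and the bars give the mean ± SD of 4 mice. Ctsk rises from a mean of 61.4 to 407 CPM in Trem2-/- mice while Mmp9 falls from 946 to 220.1, and Atp6v0d2 is lowest in the Trem2-/- D0 mice.

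The first question was what injury did to the genes in WT joints. At D7, 4 of the 8 members had risen (Ctsk, Nfatc1, Atp6v0d2 and Ocstamp) and 1 had fallen (Mmp9). A gene was called at an unadjusted p under 0.05 where the higher level was more than 25% above the lower. Of all genes tested, 19.3% were called higher and 18.2% lower in this comparison. The same 5 passed a Benjamini-Hochberg adjusted p of 0.05 in limma, which 28.5% of all genes did. The median log2 fold change of the members was 0.43, against −0.04 over all genes tested. Only the values of Atp6v0d2 did not overlap between D0 and D7, while 22.2% of all genes tested were without overlap.

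In Trem2-/- joints, 6 members had risen at D7 (Ctsk, Atp6v0d2, Acp5, Nfatc1, Ocstamp and Dcstamp) and Mmp9 had fallen. Injury changed much of the transcriptome there: 26.5% of all genes tested were called higher, 27.9% lower, and 53.2% passed the adjusted threshold, as did these 7 members. The median of the members was 0.86, against −0.04 over all genes. For 6 members, all those called but Ocstamp, the D0 and D7 mice did not overlap, against 52.4% of all genes tested. At D7 no member was called between the genotypes, where 5.72% of all genes tested were called in either direction, and the median was 0.06. At D0, Atp6v0d2 and Acp5 were called lower in Trem2-/-, where 1.37% of all genes were called lower, and in both the mice did not overlap, against 0.979% of all genes. Between genotypes 0 genes passed the adjusted threshold in the limma fit reported here, with 958 at D7 and 385 at D0 under an unadjusted p of 0.05, and 0 did in edgeR. At D7, limma with only the groups compared gave 5, and 1 each was given by voom, a pseudocount of 5 and a variance prior without trend.

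**Figure D2:**
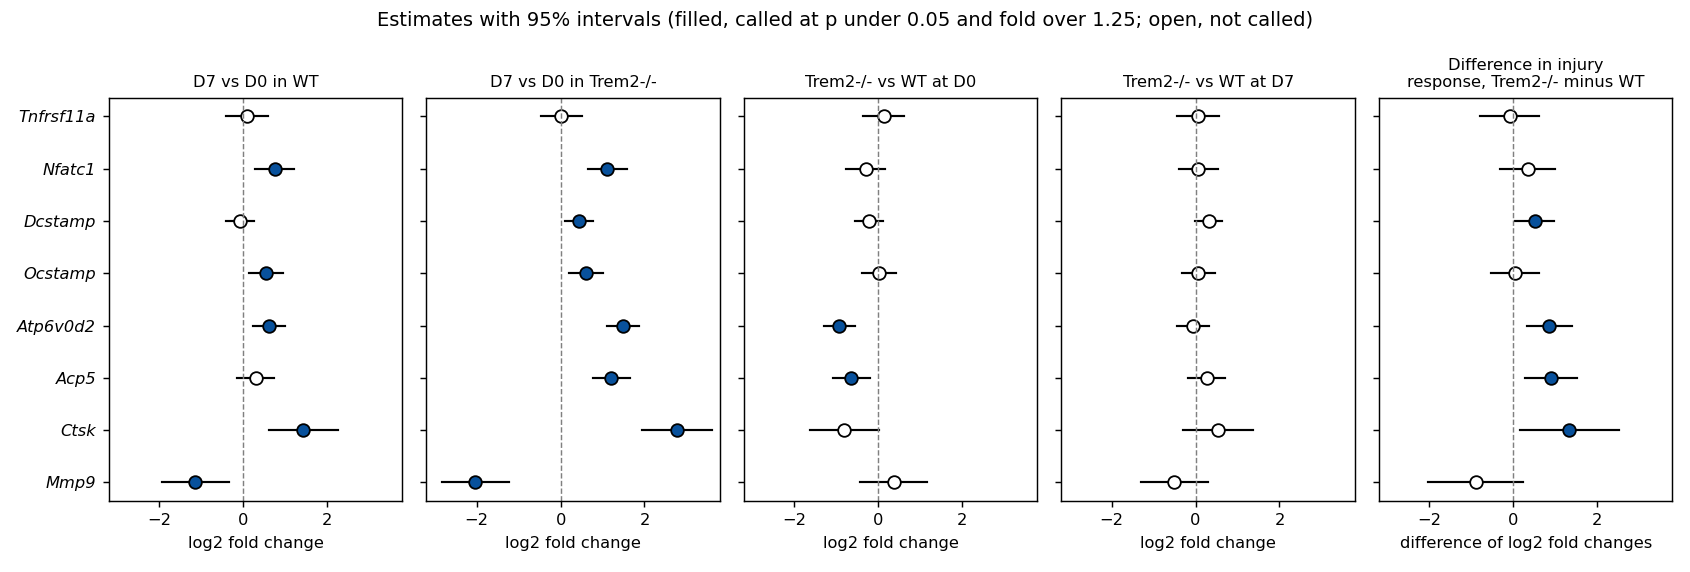
Estimated log2 fold changes of the 8 genes (x axis, on the log2(CPM + 1) scale; y axis, gene) in the 4 comparisons, and the difference in injury response between genotypes. Lines are 95% intervals and filled points are called genes. In the D7 genotype panel every interval spans 0, while 6 points lie right of 0 and filled in the Trem2-/- injury panel.

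Tnfrsf11a, the receptor through which RANKL acts, showed no detectable difference. The 4 WT D0 mice were at 10.9, 5.02, 9.57 and 8.17 CPM, and the WT D7 mice at 8.15, 7.53, 11.2 and 8.55. The Trem2-/- D0 mice were at 12.4, 6.51, 7.99 and 10.0 CPM, and the Trem2-/- D7 mice at 7.89, 11.8, 6.72 and 11.01. The 4 groups overlapped throughout. The log2 fold change with injury was 0.10 in WT, with a 95% interval from −0.40 to 0.59, and 0.02 in Trem2-/-, from −0.48 to 0.52. The genotypes differed by 0.05 at D7 (−0.44 to 0.55) and 0.13 at D0 (−0.37 to 0.63). Without WT D0 mice 1 and 4 the WT change was 0.29 and the D0 difference 0.33, neither called.

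Nfatc1, the transcription factor at the centre of osteoclast differentiation, rose with injury in both genotypes. In WT it was at 246, 126, 181 and 309 CPM in the D0 mice and at 337, 304, 308 and 448 in the D7 mice. D0 mouse 4 reached the level of the D7 mice, and the other 3 lay below. In Trem2-/- it was at 175, 172, 136 and 186 CPM at D0 and at 345, 355, 415 and 327 at D7, with all D7 mice above all D0 mice. The log2 fold change was 0.76 ± 0.22 (SE) in WT, with an adjusted p of 0.0201 in limma and an exact permutation p of 0.0857, and 1.11 ± 0.22 in Trem2-/-, with an adjusted p of 0.000692 and a permutation p of 0.0286, the smallest that 4 mice against 4 allow. Without WT D0 mice 1 and 4 the WT change was 1.19. The genotypes differed by 0.06 at D7 (95% interval −0.41 to 0.52) and by −0.29 at D0 (−0.76 to 0.17), which was 0.14 without those 2 mice. Nfatc1 lies on chromosome 18, at bases 80606205 to 80713071 of GRCm38.

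Dcstamp and Ocstamp are membrane proteins needed for the fusion of osteoclast precursors, and both were near the limit of detection, with between 6 and 43 reads a library. Ocstamp was at 0.598, 0.382, 0.319 and 1.14 CPM in WT D0 and at 1.74, 0.850, 1.10 and 1.72 in WT D7. In Trem2-/- it was at 1.01, 0.379, 0.537 and 0.541 CPM at D0 and at 1.44, 1.93, 1.46 and 1.00 at D7. The higher values were at D7 in both genotypes, and 1 D0 mouse of each genotype lay within the D7 range. The mean level was 2.22 times higher at D7 in WT and 2.37 times higher in Trem2-/-, and on the log2(CPM + 1) scale, which understates the change of low genes, the rises were 0.55 ± 0.19 (SE, adjusted p = 0.0397 in limma, exact permutation p = 0.0857) and 0.61 ± 0.19 (adjusted p = 0.0140, exact permutation p = 0.0571). The WT rise was 0.78 without WT D0 mice 1 and 4.

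Dcstamp was at 0.717, 0.813, 0.585 and 1.47 CPM in WT D0 and at 1.04, 0.736, 0.620 and 0.713 in WT D7, with the 2 groups mixed. In Trem2-/- it was at 0.806, 0.695, 0.537 and 0.463 CPM at D0 and at 0.974, 1.65, 0.896 and 1.33 at D7. All 4 injured Trem2-/- mice lay above all 4 uninjured ones, with mean levels 1.94 times apart. The log2 fold change was 0.44 ± 0.16 (SE) in Trem2-/- (adjusted p = 0.0283 in limma, exact permutation p = 0.0286), and lost its call without Trem2-/- D7 mouse 2, at 0.35. In WT it was −0.08 (95% interval −0.41 to 0.26), or 0.064 without WT D0 mice 1 and 4, not called in either case. At D7 the genotypes differed by 0.31, from −0.02 to 0.64, with a limma p of 0.0673. With 6 to 29 reads a library, differences of this size rest on few reads.

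Atp6v0d2 encodes an osteoclast-rich subunit of the proton pump that acidifies the space under the cell, and it also takes part in fusion. In the uninjured WT mice it was at 3.17, 3.92, 2.71 and 4.36 CPM, and in the uninjured Trem2-/- mice at 1.61, 1.33, 1.49 and 1.08. The highest Trem2-/- mouse was below the lowest WT mouse. At D7 it was at 5.85, 5.72, 4.45 and 8.14 CPM in WT and at 4.97, 6.89, 6.66 and 4.42 in Trem2-/-, where the genotypes overlapped.

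The genotype difference of Atp6v0d2 at D0 was −0.92 ± 0.18 on the log2 scale (SE, limma p = 9.73e-05, exact permutation p = 0.0286), with means of 1.38 and 3.54 CPM, and its adjusted p over all genes was 0.9996. It was −0.85 without WT D0 mice 1 and 4. Injury raised the gene by 0.62 ± 0.18 in WT (adjusted p = 0.0186 in limma) and by 1.49 ± 0.18 in Trem2-/- (adjusted p = 2.20e-05), and the exact permutation p was 0.0286 in each. The WT rise was 0.70 without WT D0 mice 1 and 4. At D7 the genotypes differed by −0.06, with a 95% interval from −0.43 to 0.32.

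Acp5 encodes tartrate-resistant acid phosphatase, the enzyme stained to identify osteoclasts, and macrophages make it too. In WT it was at 27.2, 35.0, 28.0 and 37.5 CPM at D0 and at 37.1, 53.4, 25.6 and 46.2 at D7. The WT groups overlapped, with D7 mouse 3 the lowest of the 8. In Trem2-/- it was at 19.6, 15.4, 25.6 and 20.5 CPM at D0 and at 44.8, 55.7, 53.4 and 37.9 at D7, with a gap between the groups.

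Acp5 rose with injury in Trem2-/-, by 1.21 ± 0.21 (SE, adjusted p = 0.000242 in limma, exact permutation p = 0.0286), while the WT change was 0.30 with a 95% interval from −0.14 to 0.74. Without WT D7 mouse 3 the WT change was 0.50 and was called, and without WT D0 mice 1 and 4 it was 0.31 and was not. At D0 the gene was lower in Trem2-/- by −0.64 ± 0.21 (limma p = 0.00737, adjusted p = 0.9996, exact permutation p = 0.0286), and by −0.62 without WT D0 mice 1 and 4. The genotypes differed by 0.27 at D7, from −0.17 to 0.71. The annotation places 137 of the 2030 exon bases of Acp5 (6.75%) under the gene 6530413G14Rik on the opposite strand, and because whether the counting used strand is not given in the sources used here, reads of the 2 genes cannot be told apart in that stretch.

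Ctsk had the largest rise of the 8. The WT D0 mice were at 148, 46.6, 69.96 and 218 CPM and the WT D7 mice at 249.7, 312, 216 and 349.7. The Trem2-/- D0 mice were at 66.8, 65.0, 31.1 and 82.6 CPM and the Trem2-/- D7 mice at 418, 412, 476 and 323. WT D0 mice 1 and 4 were higher than every Trem2-/- D0 mouse, and mouse 4 overlapped WT D7, whereas in Trem2-/- the days were far apart.

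The mean level of Ctsk was 2.33 times higher at D7 in WT and 6.64 times higher in Trem2-/-. On the log2 scale this was 1.44 ± 0.39 (SE) in WT, with an adjusted p of 0.0147 in limma and an exact permutation p of 0.0571, and 2.78 ± 0.39 in Trem2-/-, with an adjusted p of 5.68e-05 and a permutation p of 0.0286. Without WT D0 mice 1 and 4 the WT rise was 2.26. The genotypes differed by 0.54 at D7 (95% interval −0.29 to 1.37, limma p = 0.185, exact permutation p = 0.0571). At D0 the difference was −0.80 (−1.63 to 0.03), and it was 0.02 without those 2 mice.

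The sequences before the starts of Ctsk and Acp5 are shown because these matrix-digesting enzymes rose together in injured Trem2-/- joints and are classical targets of Nfatc1, Mitf and PU.1. They are the 250 bases before a RefSeq start in GRCm38.p6, 5′ to 3′ on the strand of the gene. Both strands were searched for GGAAA (the core bound by NFAT), TGANTCA (AP-1), TCACNTG (MITF) and GAGGAA (PU.1), and matches are in capitals. For Ctsk the window is chr3:95498960-95499209 on the plus strand, and the capitals mark 2 matches to the PU.1 letters. For Acp5, the window shown is the one with the most matches among the 3 RefSeq starts. It is chr9:22130599-22130848 on the minus strand, and the capitals mark 2 matches to the NFAT core and 1 to the MITF letters.
Ctsk: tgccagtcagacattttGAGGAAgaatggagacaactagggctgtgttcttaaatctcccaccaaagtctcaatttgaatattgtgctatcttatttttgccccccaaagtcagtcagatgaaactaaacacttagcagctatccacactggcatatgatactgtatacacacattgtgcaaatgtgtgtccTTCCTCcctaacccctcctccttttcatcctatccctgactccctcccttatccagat
Acp5: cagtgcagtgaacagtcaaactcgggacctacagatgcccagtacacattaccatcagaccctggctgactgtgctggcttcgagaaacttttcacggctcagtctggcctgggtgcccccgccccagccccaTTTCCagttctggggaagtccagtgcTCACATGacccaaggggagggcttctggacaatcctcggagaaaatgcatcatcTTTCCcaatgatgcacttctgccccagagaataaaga
Windows of the same length hold a match to the NFAT core in 55.57% of 32851 RefSeq starts, to the MITF letters in 14.18%, to the PU.1 letters in 23.25% and to the AP-1 letters in 6.75%. Both other Acp5 windows held 1 NFAT core match each, and the Tnfrsf11a window held none of the 4 motifs. A match is a description of the letters and not a bound site.

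Mmp9 was the 1 member that fell. The WT D0 mice were at 483, 935, 962 and 473 CPM and the WT D7 mice at 178, 301, 520.4 and 306. The Trem2-/- D0 mice were at 1075, 779.8, 1454 and 477 CPM and the Trem2-/- D7 mice at 142, 239, 293 and 207. In WT, D7 mouse 3 exceeded D0 mice 1 and 4, and in Trem2-/- every D7 mouse was below every D0 mouse.

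The mean of Mmp9 went from 713 to 326 CPM in WT and from 946 to 220.1 CPM in Trem2-/-. The log2 fold change was −1.14 ± 0.38 in WT (SE, adjusted p = 0.0340 in limma, exact permutation p = 0.0857), or −1.64 without WT D0 mice 1 and 4, and −2.03 ± 0.38 in Trem2-/- (adjusted p = 0.000428, exact permutation p = 0.0286). The genotypes differed by −0.51 at D7 (95% interval −1.31 to 0.29) and by 0.37 at D0 (−0.42 to 1.17), which turned to −0.12 without WT D0 mice 1 and 4.

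The second question was whether the response to injury differed between genotypes. The log2 fold change with injury was called higher in Trem2-/- than in WT for 4 members, Ctsk, Acp5, Atp6v0d2 and Dcstamp. In that direction 2.77% of all genes tested were called. In WT alone, Acp5 (0.30) and Dcstamp (−0.08) had no called change. The difference of the log2 fold changes was 1.34 for Ctsk (SE 0.55), 0.91 for Acp5 (SE 0.29), 0.87 for Atp6v0d2 (SE 0.25) and 0.51 for Dcstamp (SE 0.22). Permuting the genotypes within each day gave p-values of 0.0392, 0.0147, 0.0347 and 0.02 for these genes. That permutation takes the genotypes as alike on both days, so its p-values are not exact for a difference in response alone. None of these genes passed the adjustment over all genes, with adjusted p-values between 0.579 and 0.595 in limma. No gene of the 13173 did, although 1075 had an unadjusted p under 0.05.

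Atp6v0d2 and Acp5 started lower in Trem2-/- at D0 and did not differ detectably at D7. Both kept their call without WT D0 mice 1 and 4, at 0.79 and 0.89. Ctsk and Dcstamp did not: the difference of Ctsk was 0.52 without these mice and that of Dcstamp was 0.37, neither of them called. Without any 1 of WT D0 mouse 1, WT D0 mouse 4, WT D7 mouse 3 or Trem2-/- D0 mouse 3, Ctsk was not called, with differences between 0.98 and 1.22. Dcstamp lost its call without WT D0 mouse 4 or any 1 of WT D7 mice 2, 3 and 4. It also did without any 1 of Trem2-/- D0 mice 3 and 4 and Trem2-/- D7 mice 2 and 4. Its differences were then between 0.38 and 0.50, and with a pseudocount of 5 it was 0.17, not called. The comparisons share samples: each D0 group enters its injury comparison and the D0 genotype comparison.

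Genes of other cell types moved with injury and are set beside the members. No defining marker of fibroblasts, neutrophils, macrophages or pan-leukocytes was at 0 in any library. The 8 fibroblast markers were Col1a1, Col1a2, Col3a1, Dcn, Lum, Pdgfra, Thy1 and Fbn1. Their sum ranged from 6249 to 50072 CPM in WT D0, 74954 to 115540 in WT D7, 5229 to 11395 in Trem2-/- D0 and 99617 to 139965 in Trem2-/- D7. The sum of 10 neutrophil markers ranged from 15472 to 35382 CPM in WT D0, 5038 to 15268 in WT D7, 15978 to 47733 in Trem2-/- D0 and 4652 to 7894 in Trem2-/- D7. All 10 neutrophil markers were called lower at D7 in each genotype.

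Within groups, where neither genotype nor day differs, the order of the mice can be set beside the markers, over 24 pairs of mice of the same group. Ctsk had the same order as the fibroblast sum in 22 of 24 pairs and Nfatc1 in 19. For the chondrocyte and synovial lining sum these were 19 pairs for Ctsk and 22 for Nfatc1. With the sum of 7 osteoblast and osteocyte markers, of which 4 were called higher with injury in each genotype, Ctsk shared the order in 18 pairs and Nfatc1 in 19. Mmp9 followed the neutrophil sum in 21 pairs and the pan-leukocyte sum in 21. The part of these cells in the changes of the 3 genes was not tested. Acp5 and Atp6v0d2 had the order of the fibroblast sum in 13 and 17 pairs.

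For macrophages, 7 of 9 listed markers were called higher at D7 in WT, and 6 higher and 2 lower in Trem2-/-. Their sum was 817 to 1366 CPM in WT D0, 783 to 1561 in WT D7, 829 to 1451 in Trem2-/- D0 and 717 to 914 in Trem2-/- D7, and Cd14, which neutrophils and monocytes also make, held from 38.8% to 87.2% of it in single libraries. Without Cd14 the sum ranged from 145 to 229 CPM in WT D0, 375 to 550.4 in WT D7, 147 to 210.4 in Trem2-/- D0 and 302 to 381 in Trem2-/- D7. Acp5 and Atp6v0d2 each had the order of this sum in 9 of 24 pairs. At D0, where these 2 members differed between the genotypes, 0 of 9 macrophage markers and 0 of 6 pan-leukocyte markers were called. Called lower in Trem2-/- were 2 of 8 fibroblast markers, 3 of 7 chondrocyte and synovial lining markers and 2 of 7 osteoblast and osteocyte markers (Alpl and Sp7). Prg4, the synovial lining gene of its list, was not among them (−0.18). Of all genes, 1.37% were called lower. None of the genes called passed adjustment, and the counts include WT D0 mice 1 and 4. The osteoblast and osteocyte sum was 520 and 941 CPM in those mice and 174 and 374 in WT D0 mice 2 and 3. In Trem2-/- D0 it was 166 to 352 CPM. The part of these cells in the D0 difference of Acp5 and Atp6v0d2 was not tested.

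**Figure D3:**
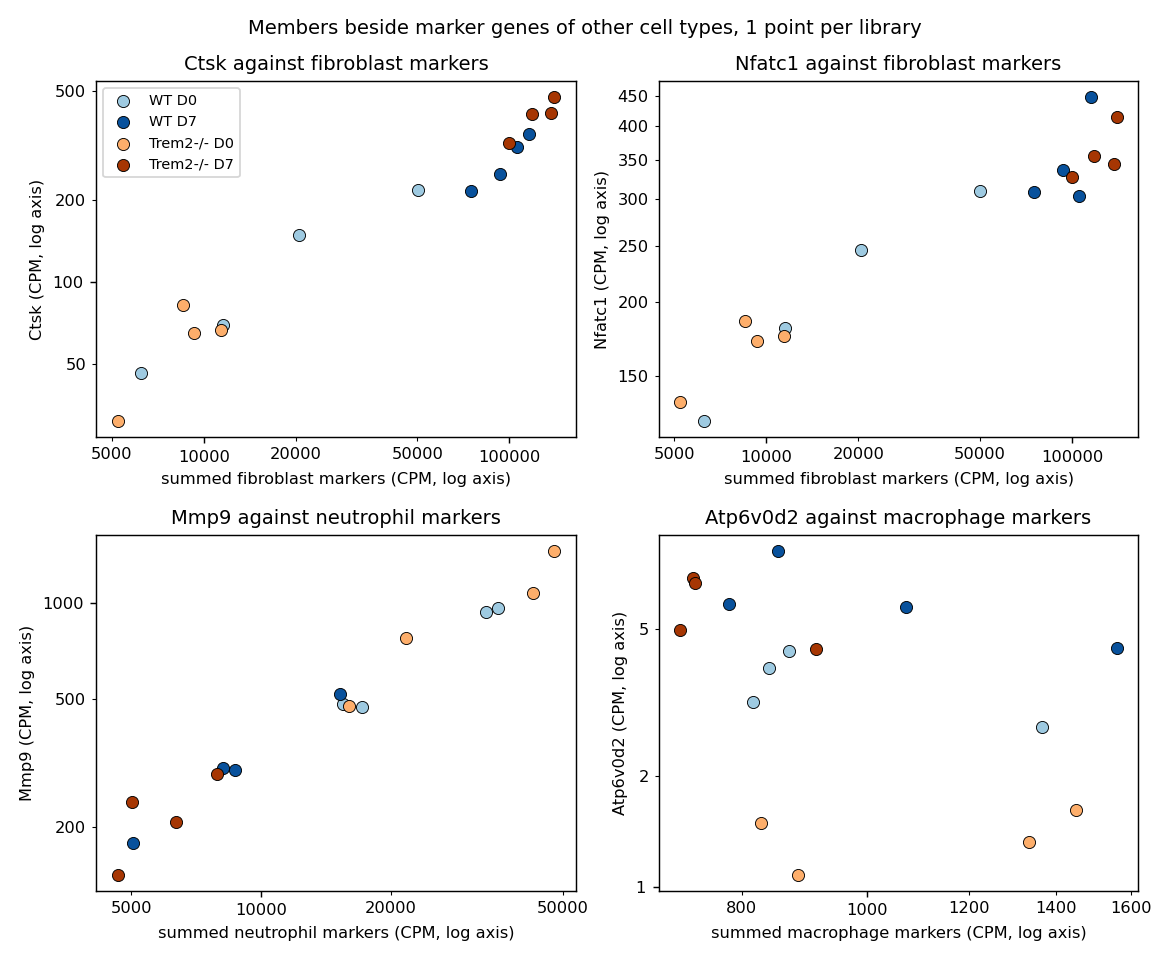
Ctsk and Nfatc1 against summed fibroblast markers, Mmp9 against summed neutrophil markers and Atp6v0d2 against summed macrophage markers (both axes CPM on log scales; 1 point per library, coloured by group). Ctsk and Nfatc1 are high where the fibroblast sum is high, as Mmp9 is where the neutrophil sum is high, and the Atp6v0d2 points of the uninjured Trem2-/- mice lie below the others at any macrophage level.

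The labelled cell type was checked with 11 other listed markers of osteoclasts. At D7, 2 of 11 were called higher and 4 lower in WT, and 3 higher and 5 lower in Trem2-/-. Of all genes tested, 19.3% were called higher and 18.2% lower in WT, and 26.5% and 27.9% in Trem2-/-. Calcr, the calcitonin receptor that marks mature osteoclasts and few other joint cells, was at 0.935 ± 0.697 CPM in WT D0, 0.495 ± 0.240 in WT D7, 1.22 ± 0.510 in Trem2-/- D0 and 0.220 ± 0.138 in Trem2-/- D7 (SD, n = 4), from 1 to 32 reads a library. It falls below the level set for named genes and was singled out after its values were seen. It fell in Trem2-/- with injury by 0.84 on the log2 scale (adjusted p = 0.00493 in limma). Itgb3, the β3 integrin chain that osteoclasts use to hold on to bone and that other cells make too, rose by 0.74 in WT and 1.2 in Trem2-/-. Slc9b2 rose the most, by 0.90 in WT (adjusted p = 0.0265 in limma) and 1.56 in Trem2-/- (adjusted p = 0.000317). In Trem2-/-, Myo1d also rose, by 0.72. Car2, Clec5a, Pstpip2 and Rab38 fell there, by 2.18, 1.74, 1.60 and 0.89. The summed level of the 11 markers was 867 to 1041 CPM in WT D0, 682 to 918 in WT D7, 920 to 973 in Trem2-/- D0 and 717 to 853 in Trem2-/- D7. These markers did not move one way as the members that rose did, so the genes are described here by name and not as a measure of osteoclasts.

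The genes most like each member are given as a description over 16 libraries that share the group differences. Among 10547 other genes, the highest Pearson r with Ctsk was that of Aebp1 (0.99), followed by Prrx2 and Mxra8, and that with Nfatc1 was Sobp (0.99), followed by Frmd6 and Creb3l1. Mmp9 was most like Pglyrp1 (0.99), Mmp8 and Gpsm3, of which Pglyrp1 and Mmp8 are proteins of neutrophil granules. The closest gene was Pex3 for Acp5 (0.92), Rab27b for Atp6v0d2 (0.93), Cxcl16 for Tnfrsf11a (0.88), Ammecr1l for Ocstamp (0.91) and 4921524J17Rik for Dcstamp (0.83).

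Among the members, Ctsk and Nfatc1 had r = 0.97 over the 16 libraries and 0.92 after subtracting the group means. Acp5 and Atp6v0d2 had 0.90 and 0.70. Ctsk and Acp5, both matrix-digesting enzymes, had 0.77 over the libraries and 0.11 within groups. Ctsk and Mmp9 ran against each other, at −0.91 and −0.63. All values of a library share its normalization, and each r rests on 16 libraries.

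The genes around the members were taken from lists of 10 functions, of which 85 of 90 non-member genes were listed and tested. With injury, 16 of the 85 were called higher and 30 lower in WT, against 19.3% and 18.2% of all genes tested. In Trem2-/-, 17 were called higher and 43 lower, against 26.5% and 27.9% of all genes. Between genotypes, 0 were called higher and 17 lower in Trem2-/- at D7, where 4.53% of all genes were called lower. At D0, 2 were called higher and 4 lower, against 0.782% and 1.37% of all genes. The injury response differed for 4 in the higher and 21 in the lower direction, against 2.77% and 5.02% of all genes. These 25 genes were 6 without WT D0 mice 1 and 4 and 0 by adjusted p, and between 14 and 31 without single libraries. The lists below also hold members where these belong. Their counts are to be read against the same shares of all genes.

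**Figure D4:**
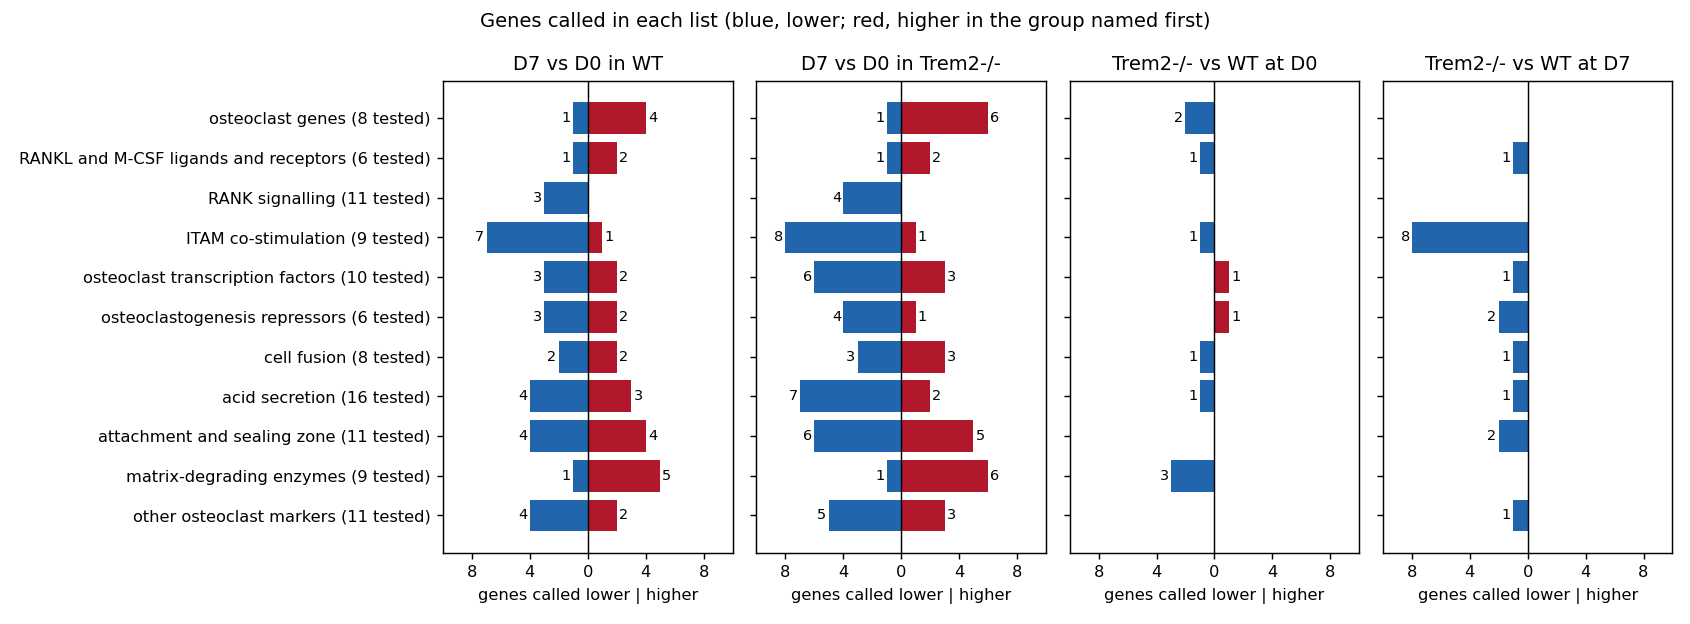
Genes called lower (blue, left) and higher (red, right) in the osteoclast genes and in 10 lists of related function, for the 2 injury and the 2 genotype comparisons (x axis, number of genes; y axis, list with the number tested). The matrix-degrading enzymes were mostly higher at D7, while 8 of the 9 ITAM co-stimulation genes were lower in Trem2-/- than in WT at D7.

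Of the ligands and receptors, Tnfsf11, which encodes RANKL, rose in Trem2-/- from 2.38 ± 1.2 to 21.0 ± 3.89 CPM (SD, n = 4), a log2 fold change of 2.75 with an adjusted p of 0.000346 in limma. In WT it was at 8.97 ± 9.54 CPM at D0, with mouse 4 at 23.2, and at 12.0 ± 6.87 at D7, a change of 0.60 that was not called. Its difference in response was 2.15 and it was lower in Trem2-/- at D0 by −1.22, both called but neither past adjustment (adjusted p = 0.579 and 0.9996 in limma). Without WT D0 mice 1 and 4 these were 1.45, still called, and −0.53, not called, and the D0 difference also lost its call without WT D0 mouse 4 (−0.66), Trem2-/- D0 mouse 3 (−1.08) or mouse 4 (−1.13). Tnfrsf11b, the decoy receptor osteoprotegerin, rose by 1.31 in WT (adjusted p = 0.0904 in limma) and 1.67 in Trem2-/- (adjusted p = 0.0216). Csf1 fell by 0.81 in WT and by 0.90 in Trem2-/-. Its receptor Csf1r rose by 0.72 in WT, while the change in Trem2-/- was −0.04 and not called. Csf1r was lower in Trem2-/- than in WT at D7 by −0.55, called but not past adjustment (adjusted p = 0.563 in limma).

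Of the ITAM co-stimulation genes, which pass signals from receptors such as Trem2, 9 of 12 were listed. With injury 1 was called higher and 7 lower in WT, and 1 higher and 8 lower in Trem2-/-, the higher one being Trem2 itself. At D7, 8 of 9 were lower in Trem2-/-, among them Trem2, Blnk (−0.80) and the kinase Syk (−0.75). Tyrobp, the adaptor of Trem2, fell with injury by 0.99 in WT and by 1.84 in Trem2-/-, and was lower in Trem2-/- by −0.58 at D7. All 6 pan-leukocyte markers were also called lower in Trem2-/- at D7, with a median of −0.76. The part of leukocyte content in the ITAM genes was not tested.

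RANK signalling genes, 11 in all, included none that rose and 3 that fell in WT and 4 in Trem2-/-, such as Mapk14 (−0.65 and −0.94) and Ikbkb (−0.33 and −0.59). Of 10 osteoclast transcription factors, 2 were called higher and 3 lower in WT, and 3 higher and 6 lower in Trem2-/-. Beside Nfatc1, Mitf rose by 0.69 in WT and 0.57 in Trem2-/-, Prdm1 rose by 0.73 in Trem2-/-, and Spi1, which encodes PU.1 of all myeloid cells, fell by 0.84 and by 1.78. Jun, Jdp2, Junb, Tfeb and Fosl2 also fell in Trem2-/-, by 1.01, 0.91, 0.83, 0.78 and 0.63. Of 6 repressors of osteoclast formation, 2 were called higher and 3 lower in WT, and 1 higher and 4 lower in Trem2-/-. Irf8 fell by 0.92 in WT and by 1.35 in Trem2-/- and Tnfaip3 fell by 0.46 and by 1.13. Of the 5 cell fusion genes that are not members, 0 were called higher, and Adam8 fell by 0.69 in WT and by 1.59 in Trem2-/-.

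Of 16 acid secretion genes, 3 were called higher and 4 lower in WT, and 2 higher and 7 lower in Trem2-/-, where the median was −0.26. Atp6v0d2 rose the most of them in each genotype. The bicarbonate exchanger Slc4a2 rose by 0.55 and 0.65, the chloride channel Clcn7 rose by 0.33 in WT, while Snx10 fell by 0.42 and by 0.98, Plekhm1 by 0.37 and by 0.90, and Car2, the carbonic anhydrase that supplies protons in osteoclasts and is abundant in red cell precursors, by 1.72 and by 2.18. Of 11 attachment genes, 4 were called higher and 4 lower in WT, and 5 higher and 6 lower in Trem2-/-. Src rose by 1.19 in WT and 1.88 in Trem2-/- and Itgav rose by 1.18 and 1.81, while Gsn fell by 1.04 and by 1.55 (the WT change was not called without WT D0 mice 1 and 4) and Ptk2b by 0.59 and by 1.41. Of 9 matrix-degrading enzymes, 5 were called higher and 1, Mmp9, lower in WT, and 6 higher and Mmp9 lower in Trem2-/-. Mmp14, a membrane-bound collagenase of fibroblasts and osteoclasts, rose by 2.18 and 3.78, and the macrophage elastase Mmp12 rose by 1.27 and 1.65. Mmp13, a collagenase of chondrocytes and osteoblasts, was lower in Trem2-/- at D0 by −2.36 and rose by 1.92 in Trem2-/-, with a difference in response of 2.71. The D0 difference and the difference in response did not pass adjustment (adjusted p = 0.9996 and 0.579 in limma). Without WT D0 mice 1 and 4 the D0 difference of Mmp13 was −1.59 and that in response 1.94, neither called, and the rise in Trem2-/- lost its call without D0 mouse 3 (1.44) or D7 mouse 3 (1.42).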

How the data were processed

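Cells of 16 mouse knee joints were profiled by bulk RNA-seq. The authors used STAR (genome mm10), featureCounts and edgeR's TMM scaling to obtain gene values; versions, annotation, strand setting and any filter on low counts are not given in the sources used here. The deposited signal values are TMM-normalized CPM, with column sums from 826216 to 957113 in the D0 libraries and from 1042909 to 1169115 in the D7 libraries. The scaling therefore differed by day and enters every change with injury. All values were whole multiples of 1 read within a tolerance of 0.02, so reads were recovered, from 11567073 to 32867818 a library. One gene, Fcgr1, was listed again with identical values and was kept once. No 2 libraries of a group agreed within sampling noise (chi-square per degree of freedom of at least 10.8).

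Genes at 1 CPM or more in at least 4 libraries were tested on log2(CPM + 1) in limma 3.58.1 (R 4.3.3), with the 4 groups as 1 factor and a trended variance prior. A gene was called at p under 0.05 and a fold change over 1.25, the study's rule, with Benjamini-Hochberg adjusted p beside it over all 13173 genes. Members also had exact two-sided permutation tests over 70 assignments. The 95% intervals used t quantiles from scipy 1.17.1. For the difference in response, genotypes were permuted within each day over 4900 assignments, with a smallest p of 0.000408. The labels number the libraries of a group without saying that each is a separate animal; they are called mice here, and p-values measure the spread between these samples. The replicate numbers were not used to pair the samples, except in the alternative with a replicate block. Lengths and positions came from GENCODE on GRCm38, and sequences from RefSeq GRCm38.p6. Of the listed members, 3 had a start there (Tnfrsf11a, Ctsk and Acp5).

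All 8 members were named, and Tnfsf11, Tnfrsf11b, Csf1, Csf1r, Trem2 and Tyrobp were always named. Other pathway genes were drawn from called genes with the largest changes (3 per direction and list) at a mean of at least 1 CPM. Not all genes that met this rule were named, and Fosl2 and Calcr were named outside it. The 3 genes most like each member were taken from genes at a mean of at least 5 CPM. Members and lists were chosen with earlier results of these data known. Alternatives were another pseudocount, filter, scaling, prior, fold, call rule or set of groups, a replicate block, voom, edgeR 4.0.16 on the recovered reads and leaving out each library. The script was tested on simulated data.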

Additional observations from a re-analysis of the deposited data

Results flagged for a closer look

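The difference in injury response between Trem2-/- and WT passed the unadjusted test for 4 osteoclast genes, at 1.34 for Ctsk, 0.91 for Acp5, 0.87 for Atp6v0d2 and 0.51 for Dcstamp on the log2 scale, and none of these passed adjustment over all genes in limma. The differences of Ctsk and Dcstamp lost their call when any of several single libraries was left out.

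The sum of 9 macrophage markers stood apart in 1 library of each of 2 groups. WT D0 mouse 3 was at 1366 CPM against 817 to 871 in the other 3 mice, a gap of 0.901 of the range of the group. Trem2-/- D7 mouse 4 was at 914 CPM against 717 to 736, a gap of 0.905. Of 76 groups of 4 tested with Dixon's 95% limit, 2 exceeded it, where chance gives about 1 in 20.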

How the results depend on the processing

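Of 825 alternative values for the fold changes of the members, 754 kept direction and side of the threshold, 15 became called, 19 lost their call and 37 reversed, none of those reversed being called. Where genes needed an average of 5 CPM or more, which leaves Atp6v0d2, Ocstamp and Dcstamp untested, 3 members were called with injury in WT (5 in the report), 4 in Trem2-/- (7), 1 at D0 (2) and 2 in the difference in response (4). At D7, 1 was called under quantile normalization (Dcstamp) and 1 with only the groups compared (Ctsk), against 0. By adjusted p, 0 were called at D0 and 0 in the difference in response. Without WT D0 mice 1 and 4, an alternative chosen after seeing the data, 2 were called in the difference in response (Acp5, Atp6v0d2).

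Leaving out single libraries gave 5 to 6 and 6 to 7 called members with injury in WT and Trem2-/-, 0 to 1 at D7, 2 to 4 at D0 and 2 to 5 in the difference in response. At D0 there were 4 without WT D0 mouse 2 (Ctsk and Nfatc1 added) and 3 without WT D0 mouse 3 or Trem2-/- D0 mouse 4; at D7 there was 1 (Dcstamp) without WT D7 mouse 1 or Trem2-/- D7 mouse 3; in the difference in response there were 2 without WT D0 mouse 4, WT D7 mouse 3 or Trem2-/- D0 mouse 3. Of the 85 pathway genes, leaving out libraries gave 33 to 53 and 57 to 62 with injury, 10 to 23 at D7 (10 without WT D7 mouse 3), 3 to 10 at D0 (10 without WT D0 mouse 2, 3 without WT D0 mouse 4 or Trem2-/- D0 mouse 3) and 14 to 31 in the difference in response, with 14 to 16 without WT D0 mouse 1 or 4, WT D7 mouse 3, Trem2-/- D0 mouse 1 or D7 mouse 1. By adjusted p these were 0 at D7 (17), 0 at D0 (6) and 0 in the difference (25), with 3 at D0 for only the groups compared and 6 in the difference without mice 1 and 4. The cause of these changes was not tested.

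Without mice 1 and 4 the estimates that changed sign were Dcstamp with injury in WT (0.064), Ctsk (0.0174), Mmp9 (−0.12) and Nfatc1 (0.14) at D0, and Ocstamp (−0.18) and Nfatc1 (−0.0801) in the difference. With voom, Tnfrsf11a was −0.0128 with injury in Trem2-/- and −0.0176 at D7. Leaving out libraries, uncalled estimates crossed 0 for Dcstamp in WT (−0.16 to 0.0578), Tnfrsf11a in WT (−0.10 to 0.23), in Trem2-/- (−0.12 to 0.16), at D7 (−0.0597 to 0.18), at D0 (−0.0696 to 0.27) and in the difference (−0.22 to 0.12), Ocstamp at D7 (−0.0397 to 0.16), at D0 (−0.0916 to 0.16) and in the difference (−0.0946 to 0.16), Atp6v0d2 (−0.17 to 0.0771) and Nfatc1 (−0.0107 to 0.18) at D7.

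Whether the replicate numbers mark anything shared could not be decided, because same-numbered pairs were not set against unlike-numbered ones. Of 24 same-numbered pairs, 11 had a correlation of deviations over 0.1 (range −0.509 to 0.406), and 7 of 16 libraries correlated best with their own number. Between D0 and D7 the pairs were at 0.046, 0.203, 0.406 and 0.306 in WT and at −0.196, −0.123, 0.106 and 0.015 in Trem2-/-. With the replicate block, 5 and 7 members were called with injury, 0 at D7, 3 at D0 (Ctsk added, −0.80) and 5 in the difference (Mmp9 added, −0.89). Only the groups compared gives no value for the difference in response. With 4 mice a group the exact tests cannot go below 0.0286, and reads limit Dcstamp and Ocstamp.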
